A study of Mus musculus with 74 samples.

Results

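The AP-1 and ATF injury transcription factors described here are 10 genes of the basic leucine zipper (bZIP) class, chosen by name from the 53379 genes counted in each library. They are Atf3 and Atf2, the Jun genes Jun, Junb and Jund, the Fos genes Fos, Fosb, Fosl1 and Fosl2, and the small Maf gene Maff. Their RNA was measured in L4 dorsal root ganglia (DRG) of female mice in 2 experiments. Whole DRG came from wild type C57BL/6 mice of 10 to 12 weeks, 4 of them uninjured and 4 taken 1 day after a dorsal hemisection of the spinal cord at T9/10 (SCI 1d). YFP-positive neurons were sorted by FACS from Thy1YFP16 mice of 10 to 20 weeks, in which a Thy1 transgene marks mainly larger sensory neurons with an ascending axon. These were 6 naive mice and 4 each at 1 and 3 days after sciatic nerve crush (SNI 1d, SNI 3d) and after SCI (SCI 1d, SCI 3d). The titles label each naive mouse as a control of day 1 or day 3, and these controls were pooled. The sort followed digestion with papain and collagenase, and each mouse gave 3 wells of about 100 cells that the labels call technical replicates. Whole DRG after SNI was not analysed here.

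Proteins of this class bind DNA as pairs joined through their leucine zippers. A Jun protein pairs with another Jun, with a Fos protein or with an ATF protein, and these pairs make up the AP-1 factors, which read short palindromic sites. Fos, Fosb and Junb are immediate early genes that many stimuli switch on briefly. In sensory neurons, cutting the axon activates DLK and the JNK kinases, Jun is a substrate of JNK, and Atf3 is widely used as a marker of neurons with an injured axon.

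Whole DRG libraries held 21959030 to 44493319 reads on genes, and the summed wells of a FACS mouse held 30518187 to 83599972. Levels are given as CPM (counts scaled to the library size after TMM normalization). The 8 neuron markers took 1.71% to 1.91% of reads in whole DRG and a median of 3.09% in 46 of the 66 FACS wells. The other 20 wells had over 2% of their reads on 9 markers of satellite glia and Schwann cells, with a median of 4.29% against 0.223%, and their neuron markers had a median of 0.0435%. In single wells of these 20 the neuron markers ran from 0.00727% to 1.61% and 4 fibroblast markers from 0.0132% to 5.79%. These glial wells came from naive mice (6 of 18 wells), SNI 1d (3 of 12), SNI 3d (4 of 12), SCI 1d (3 of 12) and SCI 3d (4 of 12). They lay in 14 of the 22 mice, and SNI 3d replicate 3 and SCI 3d replicate 3 had no other well. FACS results are therefore given over all wells and with the glial wells left out. In a pool of cells or tissue, fewer cells of a type and less RNA per cell cannot be told apart.

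In whole DRG, Atf3 and Jun rose 1 day after SCI and the other 8 genes did not pass the test. Atf3 lies on chromosome 1 from 191170296 to 191218039 (GRCm38, minus strand). Its level was 8.74, 10.4, 8.41 and 10.7 CPM in the 4 uninjured mice and 76.1, 40.8, 27.1 and 57.8 CPM in the 4 SCI mice. The lowest SCI mouse was above the highest uninjured mouse, and the SCI mice spread more widely than the uninjured ones. The change was 5.24-fold (log2 2.39, standard error 0.27), with an adjusted p = 0.0043 in edgeR's quasi-likelihood test. Jun, on chromosome 4 from 95049034 to 95052222 (minus strand), encodes c-Jun, the founding AP-1 subunit. It was measured at 92.7, 88.4, 78.5 and 75.0 CPM in uninjured mice and at 149.7, 135.3, 122.7 and 129.3 CPM after SCI. These groups did not overlap either, and the change was 1.61-fold (log2 0.68, standard error 0.088, edgeR adjusted p = 0.0089). For both genes the exact permutation test, two-sided, on log2(CPM + 1) gave p = 0.029, which is the smallest that 4 against 4 mice allow.

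The count of 2 DE genes among the 10 members stands against 2.32% of the 17616 genes tested in this comparison, or 1.38% in the higher direction. Groups that did not overlap were found for 2 members and for 11% of all genes tested. The median log2 fold change was 0.18 over the members and 0.014 over all genes. Markers of red blood cells took 0.00206% to 0.00900% of reads after SCI and 0.00133% to 0.00208% in uninjured DRG. With their summed level as a covariate, Atf3 was still called, Jun was not (log2 0.60, edgeR adjusted p = 0.38), and 9 genes were called in all. The part of these cells in the Jun result was not tested beyond this fit.

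The promoters of Atf3 and Jun are shown because they are the members that moved together in whole DRG. Each run is the 250 bases before the RefSeq start of the gene (GRCm38.p6), read 5′ to 3′ on the gene's own strand, which is the minus strand in both. For Atf3 this start lies inside the gene span given above. The bases before the outer start of that span, at 191218039, were not searched. Capitals mark matches to TGANTCA, the AP-1 site, to TGACNTCA, the CRE-like site of ATF and Jun pairs, and to TTACNTCA, a form that was added after these sequences had been read.
Atf3, chr1:191183334-191183583: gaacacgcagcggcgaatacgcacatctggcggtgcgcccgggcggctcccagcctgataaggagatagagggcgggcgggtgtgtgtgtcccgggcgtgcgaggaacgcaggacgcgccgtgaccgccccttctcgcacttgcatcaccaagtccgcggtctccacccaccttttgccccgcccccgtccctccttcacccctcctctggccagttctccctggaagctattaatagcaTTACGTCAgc
Jun, chr4:95052223-95052472: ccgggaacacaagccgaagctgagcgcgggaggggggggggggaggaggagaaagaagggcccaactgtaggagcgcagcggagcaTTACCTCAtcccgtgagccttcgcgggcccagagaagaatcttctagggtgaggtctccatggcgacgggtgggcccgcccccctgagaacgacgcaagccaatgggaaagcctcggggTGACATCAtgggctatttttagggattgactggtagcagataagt

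The Atf3 match spans positions -10 to -3 from the start. It is to TTACNTCA, the form added later, and Atf3 held no match to TGANTCA or TGACNTCA. Jun has TGACATCA at -45 to -38 and TTACCTCA at -164 to -157. Among the 11 promoters listed for 9 members (none is listed for Fosl1), 2 promoters of Maff also held a match. Those of Junb, Jund, Fos, Fosb, Fosl2 and Atf2 held none. The Jund stretch ended at 70697738, before the GENCODE start of the gene at 70698949. The Fosl2 stretch, from 32136222, lay inside a GENCODE span that starts at 32135801. The bases just before these GENCODE starts were not searched. Of the 32851 promoters in the table, searched over the same length on both strands, 6.75% held TGANTCA, 7.49% held TGACNTCA, 2.86% held TTACNTCA and 16% held any of them. Because TTACNTCA was added after the Atf3 and Jun runs had been read, the shares that include it give no test of these matches. A match is a run of letters and does not show that a factor was bound.

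**Figure D1:**
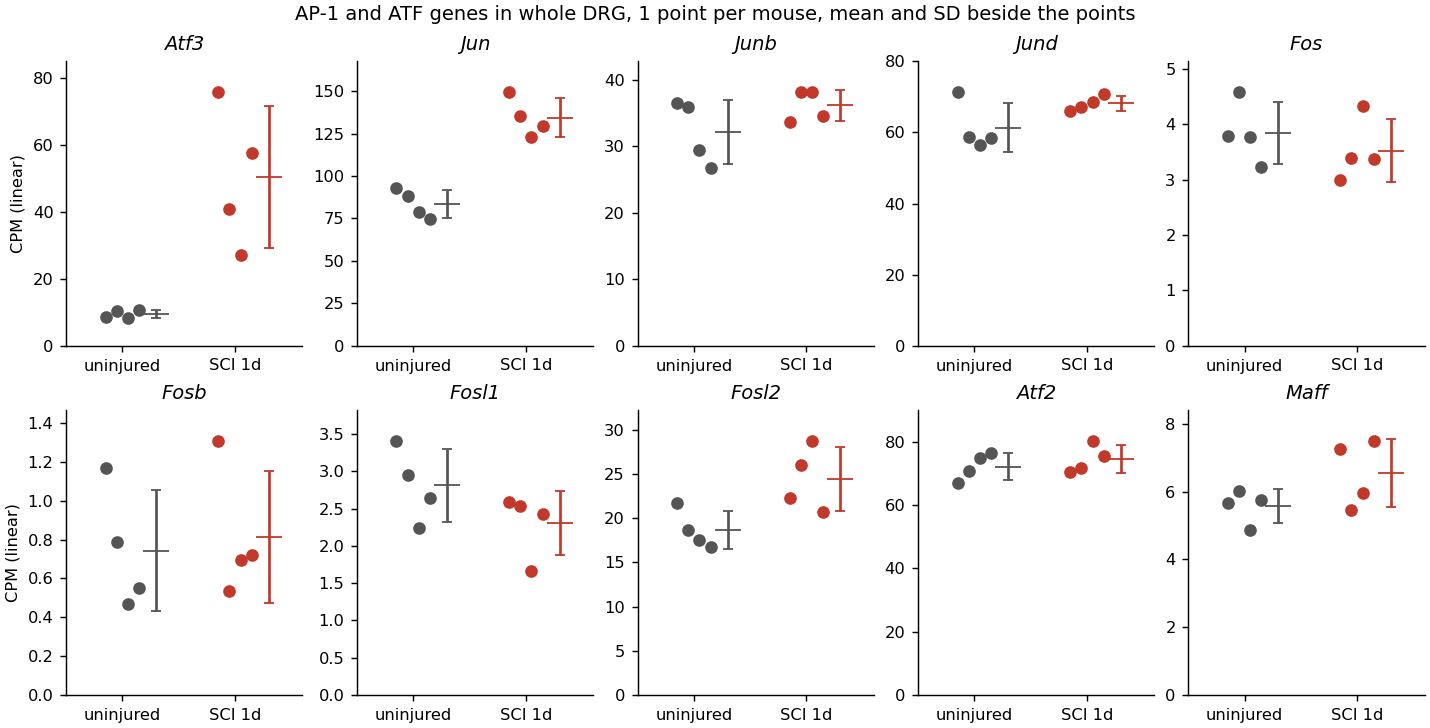
CPM of the 10 genes in whole DRG on linear axes that start at 0, with 1 point per mouse (uninjured grey, SCI 1d red) and the mean and SD of 4 mice beside the points. The 2 groups are separated for Atf3, at 8.41 to 10.7 against 27.1 to 76.1 CPM, and for Jun, at 75.0 to 92.7 against 122.7 to 149.7 CPM, and they overlap in the other 8 panels.

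Fosl2, a Fos gene that is slower and longer lasting in its induction than Fos, came closest to the threshold among the other members. Uninjured mice had 21.7, 18.7, 17.5 and 16.8 CPM and SCI mice had 22.3, 26.1, 28.8 and 20.7 CPM. Only the highest uninjured mouse lay above an SCI mouse. The log2 difference of 0.40 (standard error 0.12) had an adjusted p = 0.16 in edgeR's test. DESeq2, which called 5.27% of all genes here, called Fosl2 as well (adjusted p = 0.064). Without uninjured replicate 1, which has the highest Fosl2 and Jund of its group, Fosl2 and Jund passed as well (edgeR adjusted p = 0.087 and 0.078). The share of all genes called in that fit is not given here, so these calls do not set the members apart.

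The other two Jun genes, whose proteins pair in the same way as c-Jun, showed small differences that did not pass. Junb was at 26.8 to 36.6 CPM in uninjured and 33.7 to 38.2 CPM in SCI mice (log2 0.17, standard error 0.11, edgeR adjusted p = 0.50). Jund was at 56.5 to 71.5 and 66.03 to 70.9 CPM (log2 0.15, standard error 0.081, edgeR adjusted p = 0.42). The immediate early genes were low in whole DRG: Fos stood at 3.22 to 4.59 CPM without injury and 2.99 to 4.33 CPM after SCI, and Fosb at 0.470 to 1.17 and 0.535 to 1.31 CPM. Fosl1, which encodes the Fos protein Fra-1, had 2.25 to 3.41 CPM and 1.67 to 2.59 CPM. Atf2, a partner of Jun that is regulated largely by phosphorylation, was the steadiest member, at 66.8 to 76.3 and 70.6 to 80.3 CPM (log2 0.046, standard error 0.070). Maff, whose protein lacks an activation domain of its own, had 4.86 to 6.00 and 5.45 to 7.50 CPM. No group of these 7 genes was separated from its counterpart.

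Set against the length of the merged exons, Jund had the highest level in uninjured DRG, with a median of 35.1 CPM per kb, followed by Jun with 26.2, Junb with 14.2, Atf2 with 8.88 and Atf3 with 4.45 CPM per kb. None of these neighbours overlapped. Maff, Fosl2, Fos and Fosl1 followed at 1.38 to 2.20 CPM per kb, each overlapping the next, and Fosb was lowest at 0.107. After SCI, Jun stood first with a median of 41.5 CPM per kb, overlapping Jund with 40.7, and Atf3 moved to the third place with 22.9 CPM per kb, overlapping Junb with 15.8.

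In FACS neurons, Atf3 was the member that rose after SNI, at both times, and no member passed the test after SCI. Naive mice had Atf3 at 14.2 to 225 CPM with a median of 59.6. The SNI 1d mice had 874, 583, 1305 and 1174 CPM, and the SNI 3d mice had 923, 435.4, 512 and 523 CPM. All 8 mice lay above the highest naive mouse. Such a separation from naive was found for 1.71% of all genes at SNI 1d and 1.27% at SNI 3d. The SCI 1d mice had 92.2, 63.4, 168 and 314 CPM and the SCI 3d mice had 317, 32.2, 168 and 178 CPM, which overlapped the naive range at both times, with 1 mouse above it each time.

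After SNI 1d the Atf3 difference from naive was 14.02-fold (log2 3.81, standard error 0.66, edgeR adjusted p = 0.034). After SNI 3d it was 3.09 on the log2 scale (standard error 0.64, edgeR adjusted p = 0.077). Both had an exact permutation p = 0.0095, two-sided, the smallest for 4 against 6 mice. The genes DE at these times made up 0.685% and 0.706% of the 23507 tested, and Atf3 was 1 of the 10 members in each. The SNI 3d call was lost at a threshold of 0.05 and without naive replicate 1, 2 or 3 or SNI 3d replicate 1 or 4 (edgeR adjusted p = 0.10 to 0.16). Both SNI calls were lost in fits without the 2 factors of unwanted variation, or with the set named in the titles (FACS or FACS2018) as a term. A block of title set and replicate number also lost them (edgeR adjusted p = 0.14 and 0.13).

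After SCI the Atf3 estimates were smaller. At 1 day it was 1.21 on the log2 scale (standard error 0.62, edgeR adjusted p = 0.43), and at 3 days it was 1.31 (standard error 0.62, edgeR adjusted p = 0.53). In these comparisons 0.017% and 0% of genes were DE in edgeR. No member had an unadjusted p under 0.05 at SCI 1d, where 2981 of 23507 genes had. At SCI 3d Fosl2, Atf3 and Fosl1 had, as had 2208 genes, and Fosl1 had passed the count filter through injured mice alone. DESeq2 called no member at either time, where it called 5.33% and 5.19% of all genes.

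The injuries were also compared directly. At 1 day the Atf3 estimate for SNI over SCI was 2.60 on the log2 scale (standard error 0.72, edgeR adjusted p = 0.45), and the groups did not overlap, as for 4.36% of all genes. The exact permutation p was 0.029, the smallest possible. In DESeq2, which called 4.75% of genes, Atf3 passed in this contrast (adjusted p = 0.010). At 3 days the difference was 1.78 (standard error 0.70, edgeR adjusted p = 0.58), again without overlap (1.94% of all genes), and DESeq2 called 4.14% of genes and no member. edgeR called 0% of genes in each contrast, with 2408 and 1990 at an unadjusted p under 0.05. From SNI 1d to SNI 3d the Atf3 estimate was -0.72 (standard error 0.68) and from SCI 1d to SCI 3d it was 0.098 (standard error 0.68), with edgeR adjusted p = 0.78 and 1.0. edgeR called 0.00425% and 0% of genes between the times, and no member. DESeq2 called 4.01% and 4.69% of genes and no member. In edgeR 1 member had an unadjusted p under 0.05 in each, as had 2339 genes between the SNI times and 2508 between the SCI times.

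With the glial wells left out, both SNI groups again lay above every naive mouse for Atf3, as for 2.33% of all genes at SNI 1d and 4.97% at SNI 3d. Naive mice had 27.4 to 239.9 CPM with a median of 66.01, SNI 1d mice 1090, 753, 1757 and 1342 CPM, and the 3 SNI 3d mice that remained 1122, 466 and 521 CPM. SCI 1d mice had 119.2, 82.7, 22.6 and 340.1 CPM, and the 3 SCI 3d mice 329, 34.4 and 237 CPM. The SNI estimates were 3.75 (standard error 0.72, edgeR adjusted p = 0.012) and 2.94 (standard error 0.73, edgeR adjusted p = 0.044), in comparisons with 7.83% and 7.37% of genes DE. The SCI 1d estimate was 0.58 (standard error 0.68, edgeR adjusted p = 0.71), where 0.19% of genes were DE, and SCI 3d was at 1.11 (standard error 0.73, edgeR adjusted p = 0.54), where 0% were. The median log2 estimate over all genes in these 4 comparisons was 0.31 to 0.39 without the glial wells, which is the level to read the members against. The direct SNI 1d against SCI 1d difference was 3.17 (standard error 0.82, edgeR adjusted p = 0.12), with 0.791% of genes DE in edgeR. DESeq2 called 6.49% of genes there, Atf3 among them (adjusted p = 0.00029).

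The titles place the FACS mice in sets called FACS and FACS2018, and do not say what differed between them. In the first set (4 naive mice) the mean log2(CPM + 1) of Atf3 was 3.45 higher at SNI 1d than in naive mice, and in the second (2 naive mice) it was 4.96 higher, with 2 injured mice in each. For SNI 3d the differences were 3.28 and 3.70, for SCI 1d 0.24 and 2.53, and for SCI 3d 0.65 and 2.13. All these are over all wells, and wells b and c of both naive mice of the second set were glial. Without the glial wells the differences were 3.63 and 4.40 for SNI 1d, and 3.305 and 2.846 for SNI 3d. For SCI 1d they were 0.45 and 0.31, and for SCI 3d 0.56 and 1.71. In that setting the second set had 1 injured mouse left at SNI 3d and 1 at SCI 3d. The Atf3 level also varied between the wells of 1 mouse: the ratio of highest to lowest well had a median of 20.7 over 22 mice, and of 15.2 over the 8 mice without a glial well, against 3.12 for Jun in the same 8 mice.

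**Figure D2:**
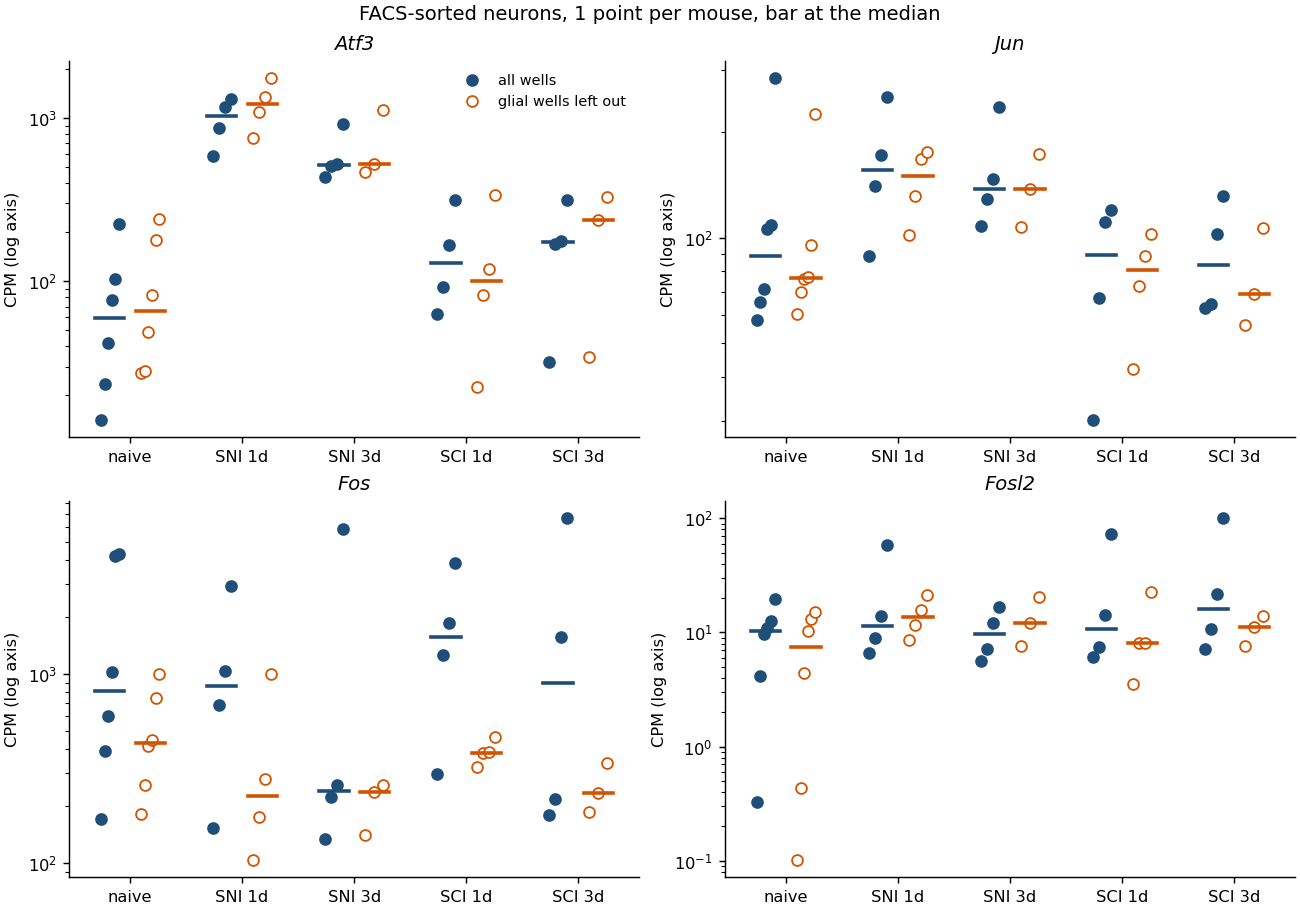
CPM per FACS mouse on log axes for Atf3, Jun, Fos and Fosl2, with filled points for all wells, open points with the glial wells left out, and a bar at the median. For Atf3 every SNI point lies above every naive point (at most 225 CPM over all wells), SCI points overlap the naive ones, and for Fos no point without the glial wells lies above 1002 CPM, against a highest point of 6652 CPM over all wells.

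Jun, which rose in whole DRG after SCI, was higher by estimate after SNI but passed in no FACS comparison in edgeR. Naive mice had 58.1 to 285.1 CPM with a median of 88.3, and the highest, naive replicate 6, stood far from the next at 108.8 CPM. SNI 1d mice had 252, 140.4, 172 and 88.8 CPM, and SNI 3d mice 147, 129, 235 and 108 CPM. After SCI the levels were 111.1, 119.7, 30.2 and 67.0 CPM at 1 day and 102.5, 64.6, 132 and 63.0 CPM at 3 days. All 4 groups overlapped the naive mice. The log2 estimates were 0.71 (standard error 0.39, edgeR adjusted p = 0.40) for SNI 1d, 0.52 (standard error 0.39, edgeR adjusted p = 0.59) for SNI 3d, -0.27 for SCI 1d and -0.23 for SCI 3d. The SCI estimates turned to 0.084 and 0.072 without naive replicate 6. Within the sets the SNI 1d difference was 1.35 in the first and -0.51 in the second, so its sign was not shared. Without the glial wells SNI 1d mice had 168, 175, 131 and 101.5 CPM (log2 0.73, standard error 0.28, edgeR adjusted p = 0.14), and DESeq2, which called 13.7% of genes, gave an adjusted p = 0.09994, just under the threshold. Within the sets this difference was 1.27 and -0.34. SNI 1d against SCI 1d gave 0.98 over all wells (edgeR adjusted p = 0.47) and 0.93 without glial wells (edgeR adjusted p = 0.23, DESeq2 adjusted p = 0.078). SNI 3d against SCI 3d gave 0.76 over all wells (edgeR adjusted p = 0.60) and 0.86 without glial wells (edgeR adjusted p = 0.67). Within the first and second set the SNI over SCI difference over all wells was 0.70 and 1.44 at 1 day, and 0.75 and 0.80 at 3 days. The Jun exons lie opposite those of the antisense gene Junos, and where strand was not used in counting, reads of the pair cannot be told apart.

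**Figure D3:**
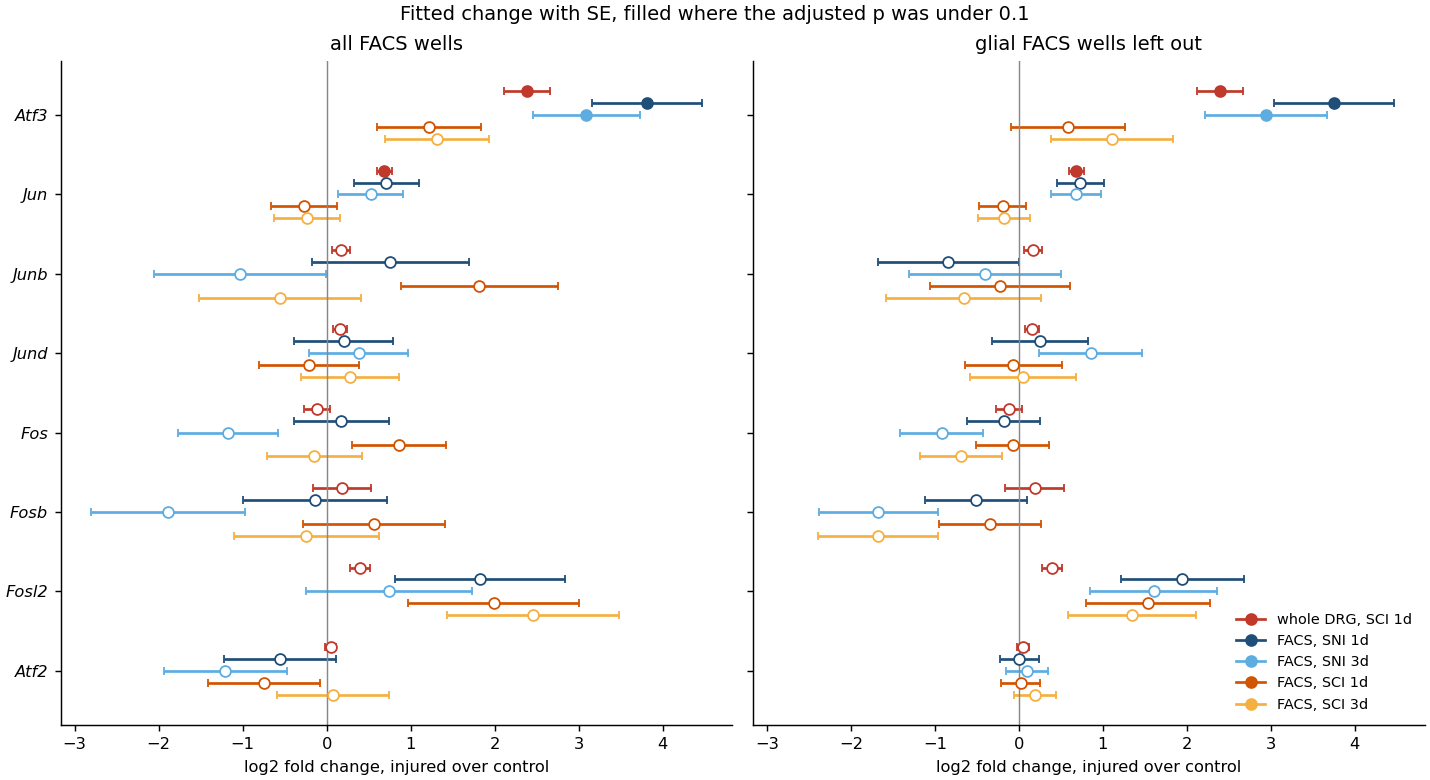
Fitted log2 fold changes of injured over control mice with their standard errors (edgeR), over all FACS wells at the left and without glial wells at the right, with filled points where the adjusted p was under 0.1. Atf3 is filled for whole DRG SCI 1d (2.39), SNI 1d (3.81) and SNI 3d (3.09), Jun for whole DRG only (0.68), and the other members show open points. Fosl1 and Maff are not drawn for either experiment, because some FACS mice had no reads or few reads of them.

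The Fos genes had their widest ranges in FACS mice and passed in no FACS comparison between conditions in edgeR. Over all wells Fos lay between 171 and 4289 CPM in naive mice, and between 134 and 6652 CPM in the injured mice. The highest values were SCI 3d replicate 3 with 6652 CPM and SNI 3d replicate 3 with 5816 CPM, the 2 mice with glial wells only. The wells of SCI 3d replicate 3 also had 2.94% to 5.79% of their reads on 4 fibroblast markers, more than on the glia markers (2.07% to 2.69%), and 2 wells of SNI 3d replicate 3 had 1.37% and 1.61% on neuron markers. The part of these cells in the Fos levels was not tested. Without glial wells Fos lay between 182 and 1002 CPM in naive mice, 104 and 999 CPM at SNI 1d, 141 and 259 CPM at SNI 3d, 320.2 and 463 CPM at SCI 1d, and 187 and 339 CPM at SCI 3d. The estimates in that setting were -0.18, -0.92, -0.075 and -0.69 on the log2 scale, with edgeR adjusted p from 0.28 to 1.0. Fosb, whose truncated protein form accumulates with repeated stimulation, lay between 5.66 and 140.7 CPM in naive mice without glial wells. In that setting it lay between 5.76 and 13.6 CPM at SNI 3d and between 3.42 and 16.4 CPM at SCI 3d. Its estimate was -1.67 (standard error 0.71, edgeR adjusted p = 0.17, DESeq2 adjusted p = 0.081) at SNI 3d, where DESeq2 called 12.1% of genes, and -1.68 at SCI 3d (standard error 0.71, edgeR adjusted p = 0.29). Within the sets the SNI 3d difference of Fosb was -0.95 in the first and -3.08 in the second, where 1 injured mouse was left.

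Fosl2 was between 0.327 and 19.7 CPM in naive mice, and 3 single injured mice stood far above their groups, with 58.7 CPM at SNI 1d, 72.4 CPM at SCI 1d and 100.2 CPM at SCI 3d. In each of these mice the highest well was a glial one, at 143.3, 170.1 and 328 CPM of that well's reads. Without glial wells SNI 1d mice had 11.7, 8.52, 21.4 and 15.8 CPM, and naive mice 0.102 to 15.1 CPM with a median of 7.42. The 2 lowest naive values belonged to replicates 5 and 6, the naive mice of the second title set. Each was left with well a alone, which held 2 and 5 reads of Fosl2. Neuron markers took 1.06% and 1.79% of reads in these wells, against a median of 3.09% in the wells that were not glial. The SNI 1d estimate was 1.94 (standard error 0.73), called by DESeq2 (adjusted p = 0.045) and not by edgeR (adjusted p = 0.14). Within the sets the SNI 1d difference in mean log2(CPM + 1) was 0.010 in the first and 3.95 in the second, so it rests on the second set. Fosl1 had at most 6 reads in every naive mouse and 0 reads in 5 of them. It had 27, 1, 5 and 0 reads at SNI 1d, 14, 53, 0 and 23 at SNI 3d, 5, 0, 0 and 0 at SCI 1d, and 0, 1, 4 and 29 at SCI 3d. All 10 members passed the count filter, but Fosl1 did so through injured mice alone, so a lower naive level was built in and no fold is given.

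Junb, Jund, Atf2 and Maff did not pass in any FACS comparison between conditions in edgeR, over all wells or without the glial wells. Junb ranged from 1.70 to 43.8 CPM in naive mice, from 0.740 to 43.8 CPM in injured ones over all wells, and from 0.505 to 7.98 CPM in all mice without glial wells. Jund lay between 1.31 and 10.8 CPM without glial wells. Atf2 lay between 22.2 and 82.7 CPM in that setting, with log2 estimates from 0.0034 to 0.19 in the 4 comparisons with naive mice. Over all wells its extremes were naive replicate 5 with 362 CPM and SNI 3d replicate 3 with 0.415 CPM, both in mice with glial wells. Maff had 0 to 481 reads per mouse over all wells, and 0 reads in 3 of the 6 naive mice once glial wells were left out.

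Wells of the same mouse were then compared, glial against other, in the 12 mice that had both kinds. This comparison was added after the data had been seen, and edgeR's test had the mouse as a block. Fos, Fosb and Junb were higher in the glial wells and Atf3 was lower, where 4.13% of 21267 genes were higher and 48.2% lower (52.3% in all). The median over all genes was -3.27 on the log2 scale, so that a value near it marks an ordinary gene in this contrast.

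Fos was higher in the glial wells of 12 of 12 mice, with a median of 4805 CPM against 397 CPM (log2 4.23, standard error 0.35, edgeR adjusted p = 3.4e-08). Fosb was higher in 10 of 12 mice, with 536 against 26.8 CPM (log2 4.29, standard error 0.84, edgeR adjusted p = 0.00046). Junb was also higher in 10 of 12, with 34.8 against 1.44 CPM (log2 4.31, standard error 1.29, edgeR adjusted p = 0.011). These are immediate early genes, and their levels in the 20 single glial wells ran from 221 to 10590 CPM for Fos and from 0 to 221 CPM for Junb. Atf3 was lower in the glial wells of 11 of 12 mice, with a median of 4.48 against 128.5 CPM (log2 -3.97, standard error 0.99, edgeR adjusted p = 0.0031). Relative to the median of all genes this is a small difference, and with DESeq2's size factors in edgeR the median was -2.02 and Atf3 no longer passed (log2 -2.07, adjusted p = 0.12). Jun was not called with TMM (log2 0.80, edgeR adjusted p = 0.33) and was called higher with DESeq2's size factors (log2 2.62, edgeR adjusted p = 0.021), a scaling under which 31.4% of genes passed. Jund, Fosl1, Fosl2, Atf2 and Maff did not pass with TMM. Fos, Fosb and Junb were higher by every scaling tried.

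**Figure D4:**
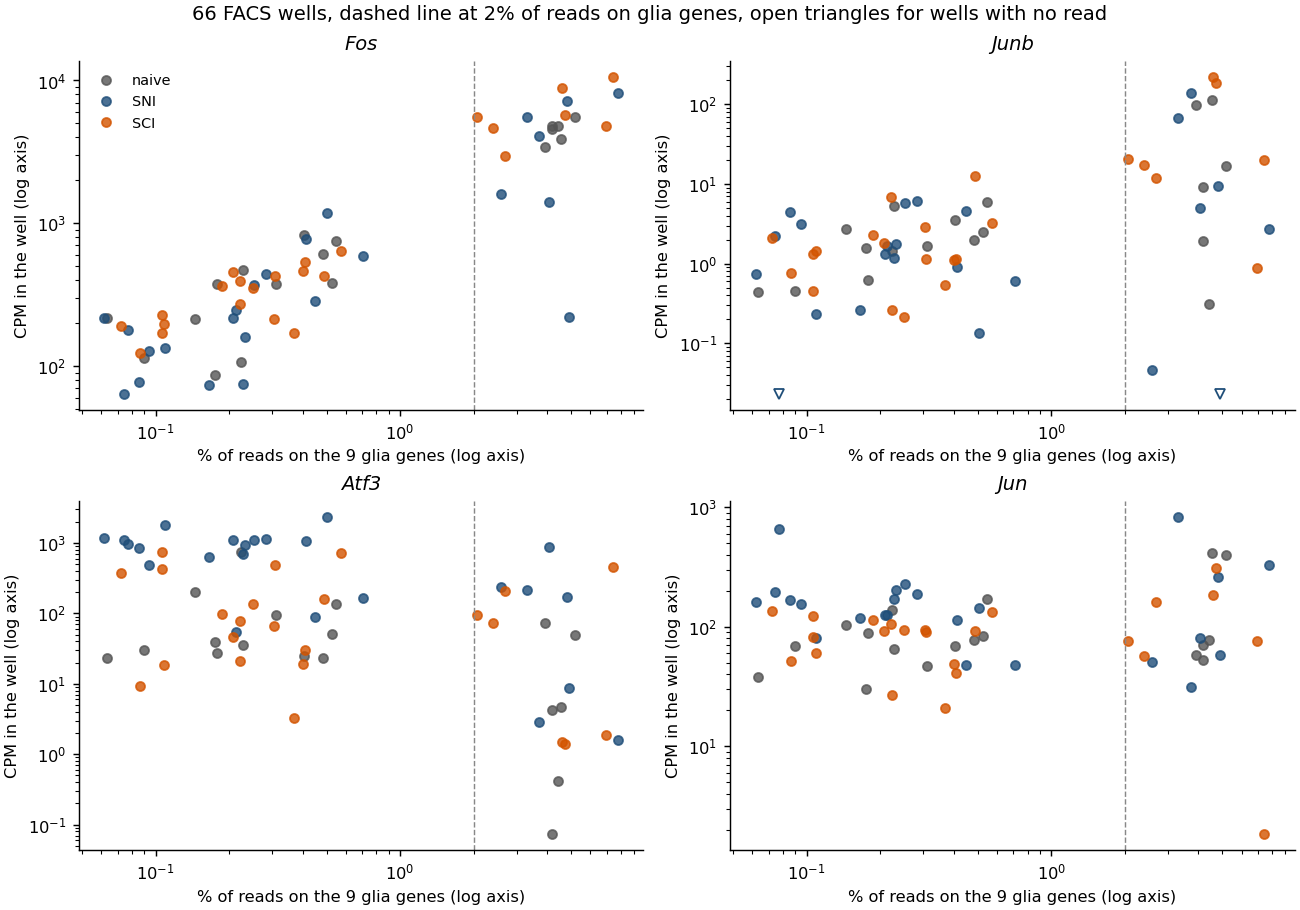
CPM of Fos, Junb, Atf3 and Jun in each of the 66 FACS wells (log axis) against the share of reads on 9 glia markers (log axis), coloured by condition, with the dashed line at 2% and open triangles for wells without a read. Wells right of the line reach 221 to 10590 CPM of Fos, against 63.8 to 1178 CPM at the left, and Atf3 there reaches 0.0738 to 886 CPM, against 3.31 to 2332 CPM at the left.

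Per kb of exon and without glial wells, Fos had the highest median of the members in naive neurons, at 184 CPM per kb, followed by Atf3 at 30.6 and Jun at 24.0, with overlap between these neighbours. At SNI 1d Atf3 was first with 565 CPM per kb and Fos second with 96.3, which overlapped, and at SNI 3d Atf3 was first with 242, above and clear of Fos with 101.1 CPM per kb. After SCI Fos was first at 1 day (163 against 46.9 for Atf3) and Atf3 was first at 3 days (109.9 against 99.6 for Fos), with overlap at both times. Jun took the third place in all 5 groups. Whole DRG and FACS neurons stood far apart in single members: Fos was at 2.99 to 4.59 CPM in whole DRG and at 104 to 1002 CPM in FACS mice without glial wells, while Jund was at 56.5 to 71.5 and at 1.31 to 10.8 CPM. Mouse line, cell content, digestion and sort, and library kit all differ between these experiments, and their parts cannot be told apart.

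The genes with levels most like Atf3 were found by Pearson's r of log2(CPM + 1), as a description across mice that share their groups. Over the 8 whole DRG mice they included Saa3 (0.99), Slc30a4 (0.99), Sectm1b (0.98) and Tifa (0.97), among 17616 genes. Jun had 0.94 there, at rank 45. Over the 22 FACS mice they were Rhoc (0.90), Flrt3 (0.88), Fndc4 (0.87), Gm30085 (0.85) and Esd (0.83), and Jun had 0.34, at rank 2287 of 23507 genes.

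Other genes of these pathways were read from 4 lists. The lists were chosen with earlier results of these data known, so their counts and medians give no independent test. In whole DRG after SCI, 1 of 30 other bZIP genes tested was higher, Cebpd (log2 0.71, edgeR adjusted p = 0.053), a C/EBP factor of the acute phase response. Of 13 early response genes 1 was higher, Dusp1 (log2 0.49, edgeR adjusted p = 0.089), a phosphatase that acts on MAP kinases. None of 12 injury-induced neuronal genes and none of 10 JNK pathway genes passed. Of all 17616 genes 1.38% were higher in this comparison and 2.32% passed in either direction. In FACS neurons over all wells, 3 of 13 injury-induced genes were higher at SNI 1d, beside 157 of all 23507 genes (Flrt3, Sox11 and Gadd45a, log2 3.71, 3.64 and 3.15). At SNI 3d 4 of 13 were higher, Sprr1a among them, beside 123 of all genes. At SCI 1d and SCI 3d 0 of 13 were called, beside 4 and 0 of all genes, so these counts do not set the list apart. The median log2 change of the 13 genes was 2.36 at SNI 1d, against 0.17 over all genes. Between SNI 1d and SCI 1d directly, 0 of 13 passed over all wells, as did 0 of all genes. The median log2 difference of the list there was 2.85, against 0.0067 over all genes. Without glial wells 7 of 13 were higher at each SNI time, beside 1540 and 1397 of all 22620 genes. In that setting 3 of 13 were higher at SNI 1d than at SCI 1d (Itga7, Sox11 and Sprr1a), beside 140 of all genes. Of 31 other bZIP genes 1 was higher at SNI 1d, Crem (log2 2.99, edgeR adjusted p = 0.067), a partner and relative of CREB. Without glial wells 6 of 30 were higher and 1 lower, the higher ones including Crem, Creb1, Nfe2l2 and Nfil3, where 1540 genes were higher and 232 lower among all 22620. At SNI 3d Crem alone of 31 was higher over all wells (log2 2.84, edgeR adjusted p = 0.090), and without glial wells 5 of 30 were higher and 1 lower, beside 1397 and 271 of all genes. Of the 15 early response genes and the 10 genes of the JNK pathway, which phosphorylates Jun, none was called over all wells at any FACS time, and without glial wells Ier3 alone was higher at SNI 1d (log2 1.26, edgeR adjusted p = 0.091).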

How the data were processed

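After trimming (Cutadapt, PRINSEQ), the authors mapped the libraries with STAR 2.5.3a to the mm10 (GRCm38) genome, and HTSeq 0.6.1 gave the counts per gene. The deposited count values are whole reads for 53379 genes in 74 libraries, without normalization. Lines that name no gene stood for 33.1% to 66.9% of each file's total and were left out. The strand setting of the counting is not given in the sources used here. The exons of Junb overlap Prdx2, Jund Gm11175, Fosl1 Ccdc85b and Jun Junos on the other strand, and Atf2 overlaps Gm27421. Of the authors' comparison tables, 123 columns of samples outside the series and the columns of fold changes and p-values (the authors' own results) were not used. The FACS wells of a mouse were summed. The authors removed outlier samples that are not named, so all 22 mice were kept.

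The members and gene lists were chosen with earlier results of these data known. All 10 members are named in every group; other genes are the 5 most like Atf3 in each experiment (1 of them is not reported here) and up to 4 called genes per list with the smallest adjusted p-value. Comparisons used edgeR 4.0.16 (quasi-likelihood F-test, TMM, Benjamini-Hochberg over all genes tested, DE under 0.1) in R 4.3.3. Genes needed a mean count of 10 in whole DRG, or 20 reads in 1 FACS mouse. The FACS fit held all 22 mice and 2 RUVr factors from centred residuals. Alternatives were DESeq2 1.42.0 with the same factors, DESeq2's size factors in edgeR, and other filters. Further ones were fits without factors, with the title set or a replicate block, and leaving out each mouse. Single members were also compared by exact permutation tests, two-sided and unadjusted, on log2(CPM + 1), a scale that understates the change of low genes. The biological coefficient of variation was 0.133 in whole DRG and 1.20 in FACS mice, so a missing call in FACS neurons does not show an unchanged gene. Symbols and exon lengths came from GENCODE vM21 and promoters from RefSeq.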

Additional observations from a re-analysis of the deposited data

Results flagged for a closer look

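Among 70 groups of 4 to 6 mice tested for a mouse that stands apart (Dixon's ratio at its 95% limit), 16 had one. The limit assumes normal values, while CPM was not logged and some Fosl1 groups had reads in 1 mouse only. The same mice also recur across the genes, so the count is not set against a chance rate. In whole DRG the mouse apart was uninjured replicate 1 for Jund, at 71.5 CPM against 58.8 in the next mouse. The calls of Jund and Fosl2 change without this mouse. Naive FACS replicate 6 stood high for Jun (285.1 CPM), Junb (43.8 CPM), Jund (16.1 CPM) and Fosb (531 CPM), and naive replicate 5 for Atf2 (362 CPM). For each of these genes the highest well of the mouse was a glial well. SNI 3d replicate 3, which has glial wells only, stood high for Fos (5816 CPM) and Fosb (366 CPM), and SCI 3d replicate 3, likewise, for Junb (25.2 CPM). Fosl2 stood high in SNI 1d replicate 3 (58.7 CPM), SCI 1d replicate 3 (72.4 CPM) and SCI 3d replicate 4 (100.2 CPM), each with its highest level in a glial well. Fosl1 was detected at 0.0933 CPM in naive replicate 3, 0.120 CPM in SCI 1d replicate 1, 0.545 CPM in SNI 1d replicate 1 and 0.58 CPM in SCI 3d replicate 4, each above the rest of its group and each under 30 reads.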

How the results depend on the processing

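Shares over all genes are not given here for the fits with a mouse left out, so their counts of members do not set the members apart. The number of members called in whole DRG was 1 with red blood cell genes as a covariate and 2 to 4 with each mouse left out. For SNI 1d it was 0 without factors, with uncentred residuals, with the title set and with the replicate block (Atf3 log2 3.53, edgeR adjusted p = 0.14). It was 3 in DESeq2 without glial wells (Atf3, Fosl2 and Jun), and 1 with each mouse left out. For SNI 3d it was 0 at a threshold of 0.05, without factors, with 1 factor, with uncentred residuals and with the title set. It was also 0 with the replicate block (Atf3 log2 2.91, edgeR adjusted p = 0.13), without glial wells and factors, and against naive mice of the same day (log2 2.17). It was 2 in DESeq2 without glial wells (Atf3 and Fosb), and 0 to 1 with each mouse left out. In these fits Atf3 kept its direction after SNI. The replicate block left the 2 calls in whole DRG in place. Mice with the same number did not all deviate together (r from -0.25 to 0.36 in whole DRG and from -0.049 to 0.43 between injured FACS groups). In whole DRG they share only a number, and in FACS same-numbered injured mice also share a title set. SNI 1d against SCI 1d had 1 member called in DESeq2 and 2 in DESeq2 without glial wells. The comparison of wells had 7 in DESeq2 (with 2518 genes higher and 6397 lower of 21267) and 8 without the mouse block (3411 and 8590). For SNI 3d against SCI 3d without glial wells Atf3 differed by 2.21 (exact permutation p = 0.10, the smallest for 3 against 3 mice).

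Estimates near 0 changed sign. In whole DRG, Junb was -0.0018 with the red blood cell covariate and Fosb ranged from -0.13 to 0.42 with each mouse left out. In FACS mice Jun ranged from -0.50 to 0.084 at SCI 1d and from -0.48 to 0.072 at SCI 3d, the upper ends being those with naive replicate 6 removed, and from -0.42 to 0.11 for SNI 3d against SNI 1d (the upper end with SNI 1d replicate 1 removed). For SCI 3d against SCI 1d, Atf3 ranged from -0.32 to 0.57 with each mouse left out and was -0.0025 by permutation with a pseudocount of 0.1, and Jun ranged from -0.28 to 0.27 with each mouse left out and was -0.030 in DESeq2, -0.028 with DESeq2's size factors, -0.0013 without the filter, -0.030 at a mean count of 10 and -0.11 with uncentred residuals. The causes were not tested. Fosl1 had at most 53 reads in a FACS mouse, which limits what can be said of it.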
